A study of Mus musculus with 28 samples.

Results

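Mouse induced pluripotent stem cells (iPSC) that had been exposed to UNC0638 early in reprogramming were compared with iPSC from reprogramming with DMSO, across all genes of a table of raw read counts. The iPSC libraries are 6 of the 28 samples of the series, 3 with UNC0638 (UNC iPSC) and 3 with DMSO (DMSO iPSC), and were chosen by their labels alone. UNC0638 was present at 1 µM for the first 48 hours. All 6 came from embryonic fibroblasts (MEFs) of E13.5 to E15.5 embryos, heterozygous for Rosa26-rtTA and Oct4-GFP, and carrying either 1 copy of a doxycycline-inducible OKSM allele or a homozygous inducible OKS allele. Which allele each library carried, and whether replicates were separate clones, cultures or embryos, was not given, so p-values measure the spread between these libraries only. The treatment note of the iPSC samples speaks of a harvest at 48 hours, which differs from the cell type label; the markers below speak to that label. The comparison asks what of the early exposure can be read in the RNA of the derived lines. A further 12 libraries, of fibroblasts during reprogramming, were used beside them: doxycycline (DOX) at 1 µg/ml with 3C and UNC, with UNC alone, with 3C alone, or with neither, 3 each. The mix called 3C combines 3 µM CHIR99021, 50 µg/ml L-ascorbic acid and 250 nM TGF-b RI kinase inhibitor II. The 10 samples on histone H3K9me2 were not analysed here.

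UNC0638 inhibits the related methyltransferases G9a and GLP, encoded by Ehmt2 and Ehmt1, which place dimethyl marks on lysine 9 of histone H3, a mark of silenced chromatin. During reprogramming, doxycycline switches on Oct4, Sox2 and Klf4, with Myc in OKSM cells, and fibroblasts shut off their matrix and contractile genes while turning on epithelial and then pluripotency genes. Mouse pluripotent cells are commonly kept on irradiated fibroblast feeders; the labels name feeders for the reprogramming cultures and do not say whether the iPSC were harvested with them.

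The iPSC libraries held 21592023 to 25408585 reads in genes, with normalisation factors of 0.993 to 1.01. One library lay apart from its group: DMSO 3 sat at -39.0 on the first principal component, against -1.90 and -3.45 for DMSO 1 and 2 and 6.40 to 20.9 for the UNC iPSC. A chi-square of counts, per degree of freedom, was 10.8 and 8.88 between DMSO 3 and DMSO 1 and 2, and 3.17 between DMSO 1 and 2, where counting error alone gives about 1. UNC 3 also stood off, with 7.74 and 10.98 from UNC 1 and 2, which were at 3.16 from each other. Results are therefore given with all 6 libraries and without DMSO 3.

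As the cell type label implies, pluripotency genes were expressed in all 6 libraries. Nanog, a core pluripotency factor, had 475, 460.1 and 426 CPM (counts scaled to a common total of reads in genes) in the UNC iPSC, against 470.2, 463 and 487 CPM in the DMSO iPSC. Esrrb, a factor of the naive state, had 841, 852 and 861 CPM against 885, 884 and 914 CPM in the same groups. Every UNC library was below every DMSO library for Esrrb, which was not called. The groups did not overlap for 19.24% of all genes tested. The summed level of the 28 naive pluripotency genes was 10883 to 11111 CPM in the UNC iPSC and 10842 to 11505 CPM in the DMSO iPSC. The ranges of the groups overlapped, and 0 of the 28 were called, which is near the 1.31% of all genes tested. The libraries also held a mesenchymal signal of similar size. The summed level of the mesenchymal and fibroblast list was 14602 to 15889 CPM in the UNC iPSC and 9604 to 10980 CPM in the DMSO iPSC. Its source was not tested. Reads of Pou5f1, Sox2, Klf4 and Myc can include transgene transcripts.

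Across 17987 genes tested, 229 rose in the UNC iPSC (1.27%) and 7 fell (0.0389%), with edgeR's quasi-likelihood test at an adjusted p below 0.05 and 3 libraries per group. The changes were modest: among the genes that rose, the log2 fold change had a median of 0.68 and ran between 0.26 and 1.32. Only 21 (0.117% of genes tested) rose at least 2-fold, and none fell that far. Of the 229, 227 are annotated as protein-coding. For all 229 and all 7 the libraries of the groups did not overlap, as was the case for 19.24% of all genes tested. At an unadjusted p below 0.05 there were 2207 genes.

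Without DMSO 3, 200 of 18370 genes rose (1.09%) and 5 fell (0.0272%). Both fits called 189 of the same genes higher and 3 lower, 44 were called only with DMSO 3 and 13 only without it. DMSO 3 had the lowest level of the 6 libraries for 168 of the 229 genes that rose, DMSO 1 for 54 and DMSO 2 for 7. Relative to each gene's mean, the median log2 level of the 229 was 0.33, 0.37 and 0.31 in UNC 1, 2 and 3, against -0.34, -0.18 and -0.48 in DMSO 1, 2 and 3. The median log2 fold change of those genes was 0.63 without DMSO 3. The number at least 2-fold changed depended on single libraries, being 5 without DMSO 3, 8 without UNC 1, 10 without UNC 2 and 43 without DMSO 2. The total of 236 was 85 without UNC 1, 111 without UNC 2 and 156 without DMSO 1, and the 7 lower genes were 0 without UNC 1 and 1 without UNC 2. Of the 229 genes that rose, 82 were called in each of the 6 fits that left out 1 library, and of the 7 that fell, 0 were.

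**Figure D1:**
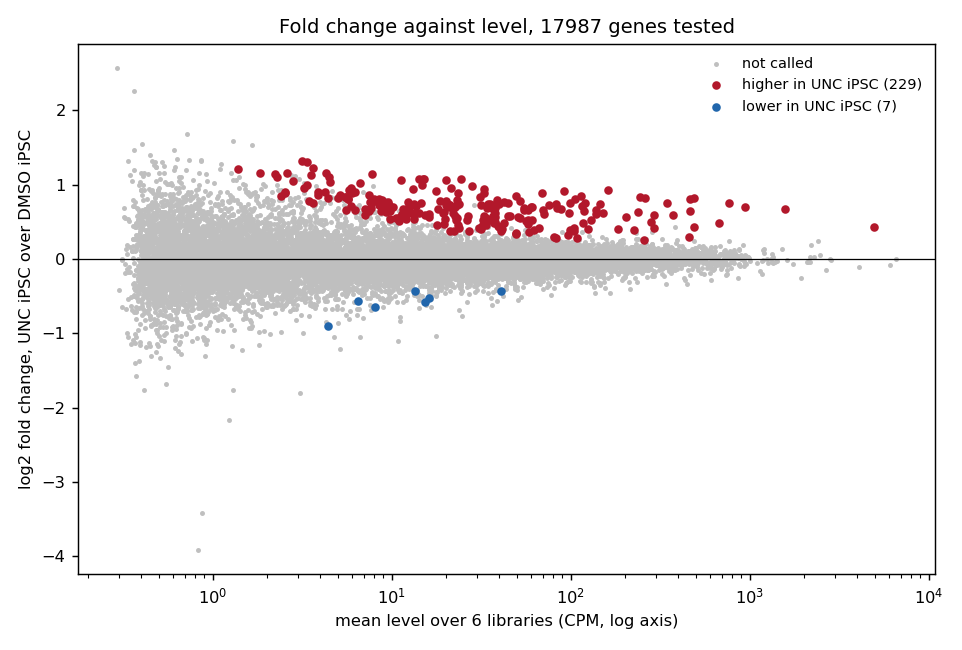
Log2 fold change of UNC iPSC over DMSO iPSC (vertical axis) against the mean level over 6 libraries (horizontal axis, CPM, log scale) for 17987 genes. Red points are the 229 genes that rose, blue points the 7 that fell and grey points the rest; the red points lie between 0.26 and 1.32 and span the range of levels.

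The smallest p-value belonged to Cemip, which encodes a protein that binds and breaks down hyaluronan (ENSMUSG00000052353, mm10 chromosome 7, 83932857 to 84086693). It had 39.5, 42.5 and 45.1 CPM in the UNC iPSC, against 23.7, 24.01 and 21.2 CPM in the DMSO iPSC. Every UNC library was above every DMSO library, and the log2 fold change was 0.89 ± 0.08 (SE; adjusted p = 0.00216 in edgeR, 0.000781 without DMSO 3). Ccdc80, a secreted matrix protein, had 61.6, 64.6 and 63.3 CPM in the UNC iPSC, against 33.7, 40.1 and 32.00 CPM in the DMSO iPSC. Its difference was 0.85 ± 0.08, with no overlap between the groups. Cyp1b1, a cytochrome P450 of steroid and hydrocarbon metabolism (ENSMUSG00000024087, mm10 chromosome 17, 79706940 to 79715061), had 35.7, 38.5 and 37.1 CPM in the UNC iPSC, against 19.4, 21.2 and 16.04 CPM in the DMSO iPSC, and rose by 0.98 ± 0.10. The ligand gene Tgfb3 had 44.5, 47.8 and 42.3 CPM in the UNC iPSC, against 28.2, 28.6 and 28.2 CPM in the DMSO iPSC. Here the DMSO libraries lay within 1 CPM of each other and the difference was 0.67 ± 0.07. Ecm1, extracellular matrix protein 1, rose by 0.78 ± 0.08.

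Col1a1, which encodes the more abundant chain of type I collagen (ENSMUSG00000001506, mm10 chromosome 11, 94936224 to 94953042), had 1177, 1161 and 1172 CPM in the UNC iPSC, against 692, 812 and 669.8 CPM in the DMSO iPSC. The UNC libraries agreed closely, DMSO 2 was the highest of the DMSO libraries, and the log2 fold change was 0.70 ± 0.07 (adjusted p = 0.00216 in edgeR, 0.000888 without DMSO 3). Thbs1, thrombospondin 1, a matrix glycoprotein that can release active TGF-beta (ENSMUSG00000040152, mm10 chromosome 2, 118111876 to 118127133), had 1931, 1868 and 2014 CPM in the UNC iPSC, against 1217, 1342 and 1114 CPM in the DMSO iPSC. It rose by 0.67 ± 0.07, again with no overlap. Acta2, smooth muscle actin, had 417, 458 and 425 CPM in the UNC iPSC, against 261, 286 and 229 CPM in the DMSO iPSC, a difference of 0.75 ± 0.08. Each of these genes was called in all 6 fits that left out a library, as were Cemip, Ccdc80, Cyp1b1, Tgfb3 and Ecm1.

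**Figure D2:**
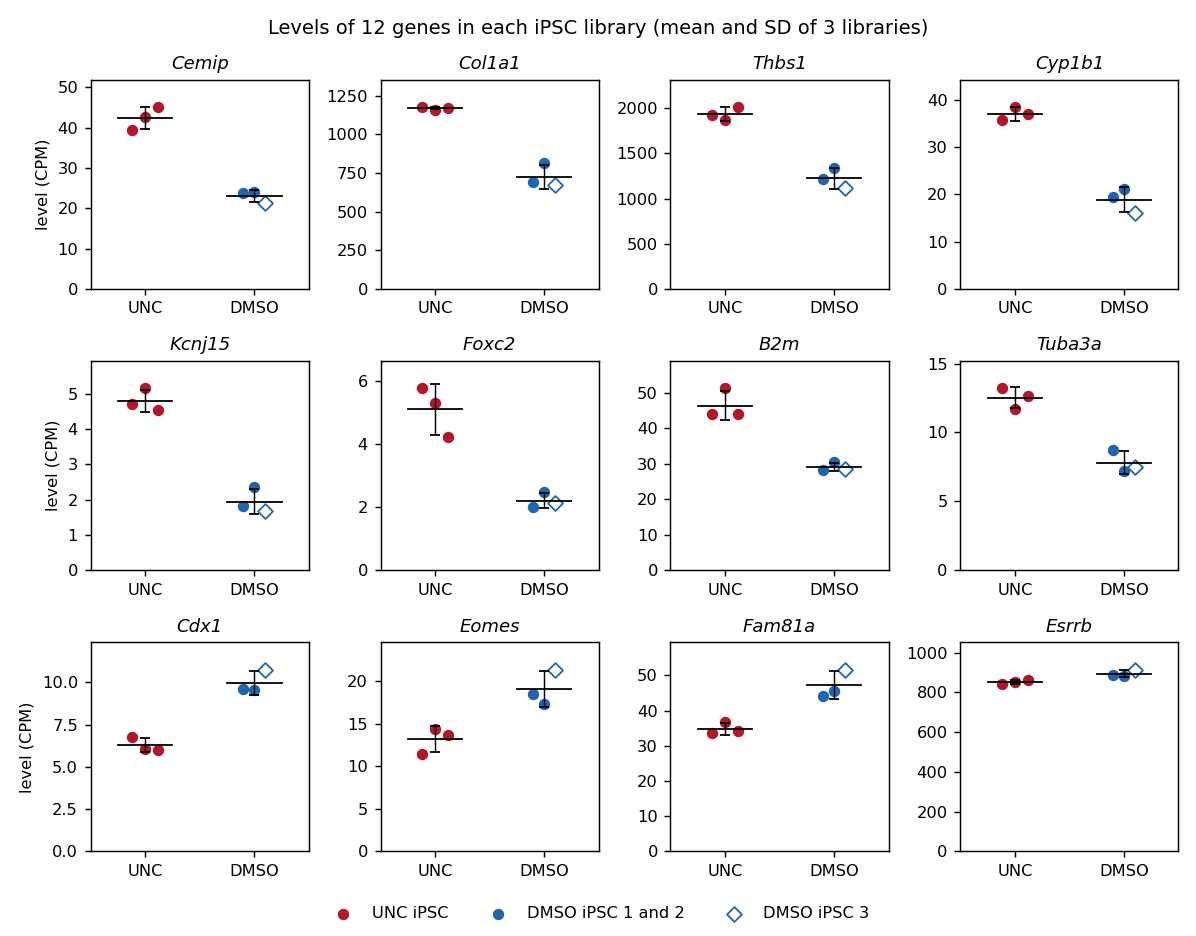
Level in CPM (vertical axes, from 0) of 12 genes in each iPSC library, UNC left and DMSO right, with the mean and SD of 3 libraries. For the 8 genes in the upper rows every UNC library lies above every DMSO library. For Cdx1, Eomes, Fam81a and Esrrb every UNC library lies below. Esrrb differs by -0.06 on the log2 scale and was not called. The open diamond is DMSO 3.

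Of 38 tested mesenchymal and fibroblast genes, 28 rose (73.7%) and 0 fell, beside 1.27% and 0.0389% of all genes tested. Their median log2 fold change was 0.65, beside a median of -0.01 over all genes tested. Without DMSO 3 the count was again 28 and the median 0.61, and leaving out any single library gave 20 to 29. The summed level of the list was 14602 to 15889 CPM in the UNC iPSC, against 9604 to 10980 CPM in the DMSO iPSC. Among the members, Thy1, a fibroblast surface protein that is lost early in reprogramming, had 57.5, 52.8 and 49.9 CPM in the UNC iPSC, against 30.8, 37.3 and 26.6 CPM in the DMSO iPSC (0.77 ± 0.11). The mesenchymal transcription factor Prrx1 had 29.8, 30.6 and 28.7 CPM in the UNC iPSC, against 16.1, 20.6 and 17.2 CPM in the DMSO iPSC (0.73 ± 0.09). Cdh11, a mesenchymal cadherin, rose by 1.08 ± 0.17, and Vim, the intermediate filament vimentin, by 0.43 ± 0.07. Without UNC 1 the adjusted p of both was 0.065. Fn1, fibronectin, rose by 0.43 ± 0.08 with all libraries (adjusted p = 0.0287 in edgeR), and its adjusted p was 0.0519 without DMSO 3 and up to 0.0903 without DMSO 1, DMSO 2 or UNC 1. Not all of the list moved: Twist1 had a log2 fold change of 0.03 ± 0.20, Ccn1 of 0.09 ± 0.11 and Tgfbi of -0.16 ± 0.10, none of them called. Ly6a, the surface antigen Sca-1, had 3.90, 4.87 and 3.75 CPM in the UNC iPSC, against 1.89, 2.24 and 2.71 CPM in the DMSO iPSC, with an adjusted p of 0.0502 in edgeR with all 6 libraries, 0.0335 without DMSO 3, and 0.0126 in DESeq2 with all 6.

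Symbol families, picked after the values were seen and so given as counts without a test, show where in the matrix the genes lay. Each count stands beside the 1.27% of all genes tested that rose. Of 37 collagen chains tested, 15 rose, among them the fibrillar chains Col3a1 (0.60 ± 0.06), Col5a1 (0.65 ± 0.07) and Col5a2 (0.81 ± 0.10) and the basement membrane chains Col4a1 (0.49 ± 0.08) and Col4a2 (0.57 ± 0.07). Col2a1, the cartilage collagen, did not pass the test (0.27 ± 0.11). Of the 5 lysyl oxidases, enzymes that cross-link collagen and elastin, 4 rose, led by Loxl3 at 0.89 ± 0.11. All 3 tested TIMP inhibitors of metalloproteinases rose, and Timp2 had 214, 219.9 and 197 CPM in the UNC iPSC, against 114, 130.3 and 89.2 CPM in the DMSO iPSC, a log2 fold change of 0.93 ± 0.11. Of 11 matrix metalloproteinases 3 rose. Of 5 CCN proteins 3 rose, with Ccn5 at 1.08 ± 0.13, and of 4 thrombospondins 2. Fibrillins, fibulins and other elastic fibre genes gave 6 of 16. Among 11 laminin chains, 10 keratins, 9 claudins and 23 Hox genes edgeR called 0, and DESeq2 also called 0 of each. Their directions differed. At an unadjusted p below 0.05 were 4 Hox genes, all higher, 3 keratins and 4 claudins, all lower, and 3 laminin chains, 1 higher and 2 lower. The Hox genes had a median of 0.41 (0.27 without DMSO 3), with 16 of 23 above 0. Medians were -0.03 for laminin chains, -0.11 for keratins and -0.23 for claudins.

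The TGF-beta axis was partly included. Tgfb3 and its receptor Tgfbr2 (0.69 ± 0.12) rose, whereas Tgfb1 (0.04 ± 0.13) and Tgfb2 (0.34 ± 0.12) were not called. Of 4 latent TGF-beta binding proteins, which hold the ligand in the matrix, 3 rose; Ltbp2 had 316, 305 and 319 CPM in the UNC iPSC, against 182, 209 and 141 CPM in the DMSO iPSC. Inhba, an activin subunit, rose by 0.71 ± 0.08. Among 18 smooth muscle contractile genes 9 rose (50.0%, against 1.27% of all genes tested), including calponin Cnn1 (0.62 ± 0.09) and the myosin heavy chain Myh11 (0.73 ± 0.13). The call of Myh11 was lost without DMSO 2, UNC 1 or UNC 3 (adjusted p up to 0.129), and that of Tgfbr2 without UNC 1 or UNC 2 (up to 0.0624). Of 16 Nodal and BMP targets 1 was called (6.25%, against 1.31% of all genes tested). It was Id3, an inhibitor of helix-loop-helix factors, which rose by 0.50 ± 0.10. That call was lost without DMSO 1 or without any 1 UNC library (adjusted p up to 0.105).

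The largest increases were in genes of low level. Kcnj15, an inward-rectifier potassium channel (ENSMUSG00000062609, mm10 chromosome 16, 95257558 to 95300260), had 4.71, 5.15 and 4.54 CPM in the UNC iPSC, against 1.81, 2.36 and 1.67 CPM in the DMSO iPSC, a log2 fold change of 1.31 ± 0.18 (adjusted p = 0.00485 in edgeR, 0.00878 without DMSO 3). Foxc2, a forkhead factor of mesenchyme and vessels (ENSMUSG00000046714, mm10 chromosome 8, 121116171 to 121118895), had 5.77, 5.31 and 4.21 CPM in the UNC iPSC, against 2.02, 2.48 and 2.12 CPM in the DMSO iPSC (1.22 ± 0.18). The groups did not overlap in either gene. Prkg2, a cGMP-dependent kinase, had the largest increase named by size at 1.32 ± 0.25, but it was not called without DMSO 3 (adjusted p = 0.0558) or without DMSO 1, UNC 1 or UNC 2, where the adjusted p reached 0.166. Masp1, a complement protease (1.08 ± 0.14), and Ccn5, a CCN family matrix protein (1.08 ± 0.13), held in every fit, as did Kcnj15. Cavin2, a caveola coat protein (1.14 ± 0.19), Rbms3, an RNA-binding protein (1.16 ± 0.21), Tnfrsf11b, the decoy receptor osteoprotegerin (1.13 ± 0.22), Slc5a7, a choline transporter (1.16 ± 0.20), Atoh8, a helix-loop-helix factor (1.14 ± 0.22), and Itgbl1, an integrin-like secreted protein (1.10 ± 0.21), were also among the 12 largest. Of these 12, 9 lost their call in at least 1 fit with a library left out. Foxc2 lost it without UNC 1 alone (adjusted p = 0.0513), Cavin2 without UNC 1 or UNC 2 (up to 0.0745) and Rbms3 without DMSO 1, UNC 1 or UNC 2 (up to 0.133). Slc5a7 lost it without DMSO 1, DMSO 2, UNC 1 or UNC 2, and Tnfrsf11b without DMSO 1 or any 1 UNC library, with adjusted p up to 0.104 and 0.151. Atoh8 and Itgbl1 lost theirs in 5 of the 6 fits (up to 0.185 and 0.151). Without DMSO 3 the largest increases also included the predicted gene Gm2115, with 15.6, 16.5 and 13.8 CPM in the UNC iPSC, against 7.31, 8.11 and 6.67 CPM in the DMSO iPSC, and the glutamate transporter Slc1a6 (0.88 ± 0.19 with all libraries). The call of Slc1a6 was lost without DMSO 1, DMSO 2 or any 1 UNC library (adjusted p up to 0.146).

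Promoter sequence is shown for the 3 genes with the smallest p that matched a searched motif and had 1 RefSeq window, so that the matches can be read in place. Each run is the 250 bases before the start that the RefSeq promoter table uses in GRCm38.p6 (mm10), 5′ to 3′ on the gene's strand, with motif matches in capitals. That start lies inside the RefSeq gene span for Cemip and Ecm1, with 188 of the 250 bases of Cemip and all 250 of Ecm1 within the span, and the Col3a1 window lies wholly before its gene. The windows are Cemip chr7:84086506-84086755 (minus strand), Ecm1 chr3:95739570-95739819 (minus strand) and Col3a1 chr1:45311288-45311537 (plus strand).
Cemip: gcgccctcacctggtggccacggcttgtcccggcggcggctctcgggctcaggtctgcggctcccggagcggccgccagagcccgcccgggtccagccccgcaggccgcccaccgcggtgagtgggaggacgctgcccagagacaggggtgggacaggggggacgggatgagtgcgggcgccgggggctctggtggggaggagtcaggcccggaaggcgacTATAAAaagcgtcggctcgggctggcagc
Ecm1: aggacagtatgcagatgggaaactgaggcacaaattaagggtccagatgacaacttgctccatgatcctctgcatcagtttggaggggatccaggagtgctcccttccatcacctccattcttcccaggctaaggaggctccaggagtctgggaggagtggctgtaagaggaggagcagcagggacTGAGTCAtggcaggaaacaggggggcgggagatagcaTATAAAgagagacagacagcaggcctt
Col3a1: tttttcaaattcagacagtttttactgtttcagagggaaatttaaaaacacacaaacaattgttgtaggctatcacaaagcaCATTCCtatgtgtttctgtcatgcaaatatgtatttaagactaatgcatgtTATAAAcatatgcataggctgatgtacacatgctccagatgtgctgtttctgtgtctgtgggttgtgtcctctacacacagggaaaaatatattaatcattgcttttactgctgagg
Cemip held TATAAA with its first base 29 bases before the start, and Ecm1 held TATAAA at 27 bases and the AP-1 motif TGANTCA at 64 bases before it. Col3a1 held TATAAA at 117 bases and the TEAD motif GGAATG, on the opposite strand, at 168 bases before it. Of the 229 genes that rose, 162 had a window, as did 11678 of all genes tested. TATAAA, on either strand, was in 28 of the 162 (17.3%), against 8.06% of all. On the gene's own strand, with the first base 40 to 20 bases before the start, it was in 9 of the 162 (5.56%), against 1.57% of all. TGANTCA was in 7.41% against 5.51%, GGAATG in 17.3% against 12.9%, and the CArG box in 2.47% against 1.45%, each on both strands and without overlap between motifs being excluded. These are matches of letters in 250 bases, given with no test.

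Most of the genes that rose had a higher level in fibroblasts under reprogramming than in the iPSC. In the DOX reprogramming libraries 186 of the 229 (81.2%) had a higher level than in the iPSC, against 38.1% of all genes with a value in both tables, and 89 (38.9%) were at least 4-fold higher there, against 5.17% of all. The 2 tables were scaled separately, so these ratios are approximate. Of the 7 genes that fell, 0 were higher in the reprogramming cells. In bulk RNA, fewer cells of a type and less RNA per cell cannot be told apart, and the part of residual or feeder fibroblasts in these differences was not tested. A set of 62 genes had at least 2 CPM and a level at least 16-fold higher in the reprogramming cells. It was picked by that ratio alone, includes Malat1, H19 and Hist1h1c, and is not a list of fibroblast genes. Of the 62, 11 rose, beside 1.27% of all genes tested, and 49 lay above 0 and 13 below. Their median was 0.31 (0.33 without DMSO 3), with a range of -0.57 to 1.13. Tnfrsf11b marked the upper end, and Igfbp3, an IGF binding protein, the lower, with 18.1, 19.6 and 25.7 CPM in the UNC iPSC, against 21.2, 21.5 and 52.1 CPM in the DMSO iPSC. The high value in DMSO 3 set that difference, which was -0.02 without it. Cd34 had 2.80, 2.15 and 1.99 CPM in the UNC iPSC, against 3.78, 3.27 and 2.75 CPM in the DMSO iPSC, and was not called (-0.48 ± 0.20).

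A further 43 of the 229 had a lower level in the reprogramming cells than in the iPSC, 8 of them at least 4-fold. Such genes were a smaller part of the 229 than of all genes, of which only 38.1% were higher in the reprogramming cells. Among genes with at least 2 CPM, 1 of 455 that were at least 16-fold lower there rose. Of 1414 that were 4-fold to 16-fold lower, 7 rose, beside 1.27% of all genes tested. Pnma5, a gene related to retroviral Gag, had 24.7, 23.3 and 27.8 CPM in the UNC iPSC, against 12.2, 15.7 and 16.4 CPM in the DMSO iPSC (0.78 ± 0.11), and was at 0 CPM in the DOX reprogramming mean. Tuba3a, a testis tubulin with close paralogs among which reads may be shared, had 13.2, 11.7 and 12.6 CPM in the UNC iPSC, against 8.74, 7.16 and 7.46 CPM in the DMSO iPSC (0.69 ± 0.11). Its call was lost without UNC 1 (adjusted p = 0.0845). Itga11, a collagen-binding integrin, had 79.1, 71.4 and 74.1 CPM in the UNC iPSC, against 44.6, 51.95 and 43.1 CPM in the DMSO iPSC (0.69 ± 0.08). Myh11, Cnn1, Inhba, Kcnj15 and Fn1 belonged to the 43 as well. Markers of other cell types were few: 6 of 16 listed macrophage, 9 of 12 endothelial and 6 of 15 erythroid and fetal liver genes were tested. None was called by edgeR or by DESeq2, and 0, 0 and 1 had an unadjusted p below 0.05. Over all genes tested 1.31% were called, so 0 calls in lists this small is near that share. The summed macrophage level was 115 to 120.1 CPM in the UNC iPSC and 114 to 127 CPM in the DMSO iPSC, the endothelial level 178 to 183 CPM in the UNC iPSC and 182 to 208 CPM in the DMSO iPSC and the erythroid level 56.3 to 73.2 CPM in the UNC iPSC and 59.9 to 66.5 CPM in the DMSO iPSC.

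**Figure D3:**
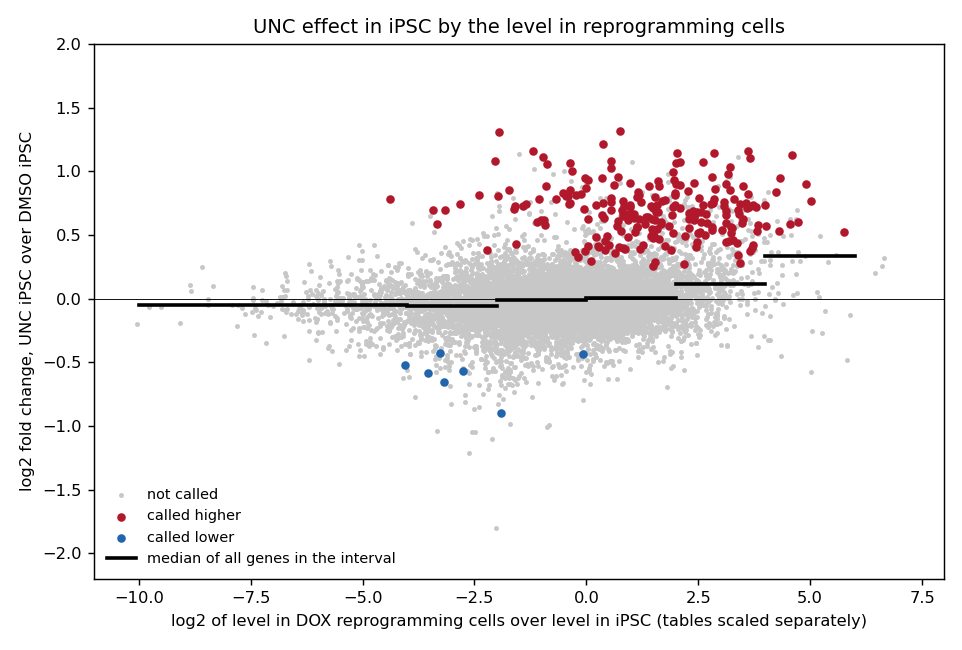
Log2 fold change of UNC iPSC over DMSO iPSC (vertical axis) against the log2 ratio of the level in DOX reprogramming cells to that in iPSC (horizontal axis). The tables were scaled separately. Points are those of the 13954 genes with at least 2 CPM that had a value in both tables. Red and blue points are genes called higher and lower, and black bars the median of all genes in each interval of the horizontal axis, for intervals with at least 20 genes: the median is -0.05 in the leftmost interval, 0.00 between 0 and 2, 0.12 between 2 and 4 and 0.33 between 4 and 6.

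Only 7 genes fell in the main fit, which did not pair libraries, and 2 of them are factors of gastrulation. With a replicate block by title numbers 96 genes fell. Cdx1, a caudal-type homeobox factor of posterior mesoderm, had 6.74, 6.09 and 6.02 CPM in the UNC iPSC, against 9.58, 9.52 and 10.7 CPM in the DMSO iPSC. The groups did not overlap, and the log2 fold change was -0.65 ± 0.11 (adjusted p = 0.0172 in edgeR, 0.0309 without DMSO 3). Eomes, a T-box factor of mesendoderm and trophoblast (ENSMUSG00000032446, mm10 chromosome 9, 118478186 to 118486132), had 11.5, 14.4 and 13.7 CPM in the UNC iPSC, against 18.5, 17.3 and 21.3 CPM in the DMSO iPSC (-0.52 ± 0.11), and was not called without DMSO 3 (adjusted p = 0.0977). Both calls were lost when any 1 UNC library was left out, and that of Eomes also without DMSO 1, with adjusted p up to 0.104 for Cdx1 and 0.269 for Eomes. Fam81a had 33.7, 36.7 and 34.1 CPM in the UNC iPSC, against 44.1, 45.7 and 51.6 CPM in the DMSO iPSC (-0.43 ± 0.07), and lost its call without UNC 1 or UNC 3 (adjusted p up to 0.126). Prr15l (-0.90 ± 0.18), the aminotransferase-like gene Got1l1 (-0.58 ± 0.11), the noncoding RNA Platr22 (-0.57 ± 0.12) and the FGF receptor gene Fgfr3 (-0.43 ± 0.09) were the others. Prr15l, Platr22 and Fgfr3 were not called without DMSO 3 (adjusted p = 0.093, 0.0535 and 0.0634), and Got1l1 was not called without any 1 UNC library (up to 0.184). Platr22 and Fgfr3 lost their call in each of the 6 fits with a library left out. Kif26a, a kinesin-like gene, had 30.6, 29.4 and 33.4 CPM in the UNC iPSC, against 40.2, 39.4 and 59.6 CPM in the DMSO iPSC. With all 6 libraries edgeR did not call it (adjusted p = 0.0947) and DESeq2 did (adjusted p = 0.00151), and edgeR called Kif26a lower without DMSO 2 or DMSO 3.

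The mesendoderm and definitive endoderm list had Cdx1 and Eomes as its only calls, 2 of 14 tested (14.3%, against 0.0389% of all genes that fell). Its median log2 fold change was -0.61, or -0.37 without DMSO 3, where Cdx1 was the only call. Its summed level was 39.9 to 50.7 CPM in the UNC iPSC, against 55.9 to 91.1 CPM in the DMSO iPSC, with DMSO 3 the highest. Fgf8, a growth factor of the primitive streak, had 0.893, 1.05 and 2.18 CPM in the UNC iPSC, against 2.31, 1.77 and 10.2 CPM in the DMSO iPSC. T, the mesoderm factor brachyury, had 0.812, 2.35 and 6.25 CPM in the UNC iPSC, against 3.87, 4.17 and 13.5 CPM in the DMSO iPSC. In both genes the groups overlapped, DMSO 3 was far above the other 5 libraries, and neither was called (adjusted p = 0.269 and 0.441 in edgeR). These 2 genes were among the 8 highest in DMSO 3 relative to DMSO 1 and 2, together with Gbp2, an interferon-induced GTPase, Psmb8, an immunoproteasome subunit, and the Wnt target Sp5. The lowest in DMSO 3 included Zscan4d and Zscan4a, near-identical genes of the 2-cell-like state, and Enox1, which had 48.6, 43.8 and 41.3 CPM in the UNC iPSC, against 39.3, 36.4 and 17.6 CPM in the DMSO iPSC. Of 13954 genes with at least 2 CPM, 19 were at least 2-fold higher and 5 at least 2-fold lower in DMSO 3 than in the mean of DMSO 1 and 2.

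Epithelial genes leaned the other way without passing the test. Of 22 tested, 0 were called by edgeR or DESeq2, 10 had an unadjusted p below 0.05 (all lower), and the median was -0.27, or -0.12 without DMSO 3. Over all 17987 genes tested 1.31% were called by edgeR and 2207 had an unadjusted p below 0.05. Cdh1, E-cadherin, had 585, 569 and 579 CPM in the UNC iPSC, against 600.4, 609 and 646 CPM in the DMSO iPSC (-0.09 ± 0.05). St14, the membrane protease matriptase, differed by -0.45 ± 0.14 and Tjp3, a tight junction protein, by -0.52 ± 0.18, with DMSO 3 again highest in both. Krt8, a keratin of simple epithelia, had 8.20, 10.1 and 16.5 CPM in the UNC iPSC, against 17.1, 17.1 and 37.5 CPM in the DMSO iPSC. Its highest value was in DMSO 3, UNC 3 nearly reached DMSO 1 and 2, and the difference of -1.04 ± 0.31 was not called (adjusted p = 0.198 in edgeR). Hypoxia and glycolysis genes gave 0 of 26 calls with a median of -0.16, 12 of them with an unadjusted p below 0.05, and DESeq2 called 4 lower. Egln3, an oxygen-sensing prolyl hydroxylase, had 176, 184 and 173 CPM in the UNC iPSC, against 203, 206 and 228 CPM in the DMSO iPSC (-0.25 ± 0.06, adjusted p = 0.0893).

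**Figure D4:**
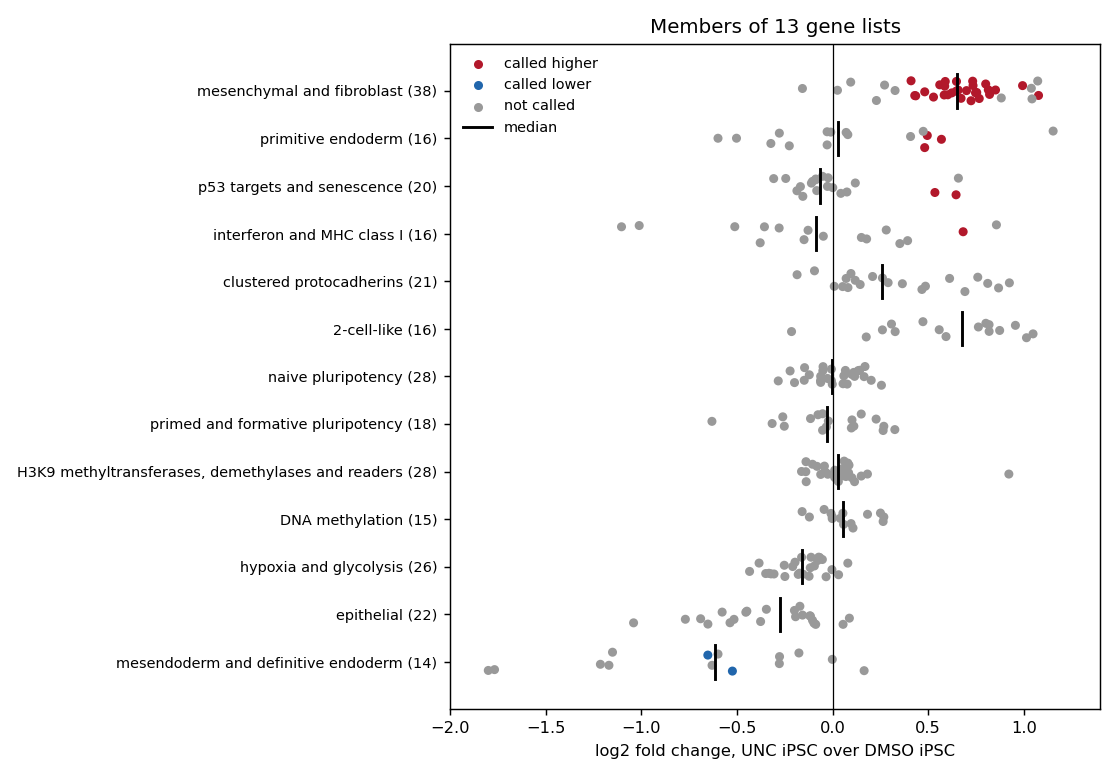
Log2 fold change of UNC iPSC over DMSO iPSC (horizontal axis) for the tested members of 13 gene lists (rows, with the number tested). Red points were called higher, blue points lower and grey points not called, and black bars are medians: 0.65 for mesenchymal and fibroblast genes, -0.00 for naive pluripotency, -0.27 for epithelial genes and -0.61 for mesendoderm genes; 28 of the red points are mesenchymal.

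Differences in the naive pluripotency genes were small. Over all genes tested 1.31% were called, so 0 calls in a pluripotency list of this size is near that share. The median over the 28 naive genes was -0.00, with single genes between -0.28 and 0.26. Of the 28, 6 had an unadjusted p below 0.05, beside 2207 of all 17987 genes tested, while DESeq2 called 0. Pou5f1, the Oct4 gene, had 986, 961 and 908 CPM in the UNC iPSC, against 977, 957 and 832 CPM in the DMSO iPSC (0.05 ± 0.07). Tdgf1, the Nodal co-receptor Cripto, had 1096, 1178 and 993 CPM in the UNC iPSC, against 1259, 1266 and 1250.1 CPM in the DMSO iPSC, lower in every UNC library and not called (-0.20 ± 0.07). Tcl1 differed by -0.15 ± 0.05 and the transcription factor Tfcp2l1 by -0.28 ± 0.09. Zfp42, the Rex1 gene, differed by -0.06 ± 0.06, Sox2 by -0.05 ± 0.07 and Klf4 by -0.12 ± 0.05. Of 18 primed and formative genes 0 were called and 5 had an unadjusted p below 0.05. DESeq2 called 1 of the 18, and the median was -0.03, or 0.04 without DMSO 3. Zic2, a zinc finger factor of the primed state, had 59.9, 58.6 and 58.4 CPM in the UNC iPSC, against 49.8, 49.9 and 52.4 CPM in the DMSO iPSC (0.23 ± 0.06, adjusted p = 0.102). Its groups did not overlap, which held for 19.24% of all genes tested.

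The chromatin genes around the inhibitor's targets showed no call in edgeR. Over all 17987 genes tested 1.31% were called and 2207 had an unadjusted p below 0.05. For lists of the sizes in this paragraph, 0 calls is near that share. Ehmt1 had 108, 104 and 109 CPM in the UNC iPSC, against 106, 104 and 106 CPM in the DMSO iPSC (0.03 ± 0.05), and Ehmt2 had 246, 240.1 and 242 CPM against 254, 242 and 230.5 CPM in the same groups (0.01 ± 0.06). Of 28 genes for H3K9 methyltransferases, demethylases and readers 0 were called, 4 had an unadjusted p below 0.05, DESeq2 called 1 and the median was 0.03. Mecom, a PR-domain factor, had 2.80, 3.21 and 3.10 CPM in the UNC iPSC, against 1.85, 1.85 and 1.12 CPM in the DMSO iPSC (0.92 ± 0.22, adjusted p = 0.0899). Trim28, the corepressor KAP1, had 2458, 2325 and 2257 CPM in the UNC iPSC, against 2208, 2158 and 1877 CPM in the DMSO iPSC (0.18 ± 0.07). Of 15 DNA methylation genes 0 were called, 1 had an unadjusted p below 0.05 and DESeq2 called 1, with a median of 0.05, the de novo methyltransferase Dnmt3b at 0.26 ± 0.07 and its cofactor Dnmt3l at 0.25 ± 0.11. Germline genes gave 1 call of 27, Tuba3a (3.70%, against 1.31% of all genes tested). Ddx4, a germ cell helicase, lay lower in every UNC library without a call (-0.23 ± 0.07). The 16 genes of the 2-cell-like state gave 0 calls by either tool and 3 with an unadjusted p below 0.05. Their median of 0.68, or 0.34 without DMSO 3, rested on low levels, with a sum of 18.7 to 32.9 CPM in the UNC iPSC, against 6.62 to 21.4 CPM in the DMSO iPSC, lowest in DMSO 3. Clustered protocadherins gave 0 calls of 21 in edgeR and 1 in DESeq2, 5 with an unadjusted p below 0.05 and a median of 0.26, and their sum was 52.5 to 58.6 CPM in the UNC iPSC, against 45.1 to 50.1 CPM in the DMSO iPSC. Pcdhgc5 had 5.12, 5.76 and 6.25 CPM in the UNC iPSC, against 2.73, 4.41 and 3.00 CPM in the DMSO iPSC (0.76 ± 0.19, adjusted p = 0.101). Zinc finger genes from Zfp900 to Zfp999 gave 0 calls of 56 by either tool, 7 with an unadjusted p below 0.05 and a median of -0.02.

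Imprinted genes of the Dlk1-Dio3 cluster, whose silencing is a known defect of some mouse iPSC lines, were expressed in all 6 libraries. Meg3, a maternal noncoding RNA of that cluster, had 213, 201 and 282 CPM in the UNC iPSC, against 211, 228 and 218 CPM in the DMSO iPSC, the groups overlapping. Rian had 258, 254 and 249 CPM in the UNC iPSC, against 236, 241 and 224 CPM in the DMSO iPSC, a difference of 0.12 ± 0.05 that was not called (adjusted p = 0.39). Of the 6 cluster genes 0 were called by edgeR or DESeq2, 2 had an unadjusted p below 0.05, and the median was 0.26, or 0.14 without DMSO 3. Mirg, another RNA of the cluster, had 16.04, 14.2 and 15.3 CPM in the UNC iPSC, against 12.5, 13.6 and 11.6 CPM in the DMSO iPSC (0.28 ± 0.10). At other imprinted loci 0 of 40 genes were called by edgeR and 1 by DESeq2, 7 had an unadjusted p below 0.05, and the median was 0.06. Over all 17987 genes tested 1.31% were called by edgeR, so 0 calls in these lists is near that share, and 2207 had an unadjusted p below 0.05. Gab1, an adaptor of receptor signalling, came closest, with 219.6, 212 and 209 CPM in the UNC iPSC, against 185, 181 and 171 CPM in the DMSO iPSC (adjusted p = 0.0505 in edgeR).

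Outside the matrix, a few genes of cell-cycle arrest and antigen presentation rose. Cdkn2a, which encodes p16 and p19 and restrains reprogramming of fibroblasts, had 22.6, 24.7 and 23.02 CPM in the UNC iPSC, against 16.3, 17.5 and 15.00 CPM in the DMSO iPSC (0.53 ± 0.09, adjusted p = 0.011 in edgeR, 0.0165 without DMSO 3). Its neighbour Cdkn2b, the p15 gene, had 11.2, 11.3 and 13.01 CPM in the UNC iPSC, against 7.44, 8.93 and 6.46 CPM in the DMSO iPSC (0.65 ± 0.13), and was not called without DMSO 3 (adjusted p = 0.0675), nor in 4 of the other 5 fits with a library left out (up to 0.13). The call of Cdkn2a was lost without UNC 1 or UNC 2 (adjusted p up to 0.0761). These were the only 2 calls among 20 p53 target and senescence genes (10.0%, against 1.31% of all genes tested), whose median was -0.07. B2m, the light chain of MHC class I (ENSMUSG00000060802, mm10 chromosome 2, 122147687 to 122153082), had 43.98, 51.2 and 43.9 CPM in the UNC iPSC, against 28.3, 30.5 and 28.4 CPM in the DMSO iPSC. It rose by 0.68 ± 0.08 and held in all 6 fits with a library left out, while the other 15 interferon and MHC class I genes were not called. Cdkn2a, Cdkn2b and B2m were among the 186 of the 229 risen genes with a higher level in the DOX reprogramming libraries than in the iPSC. Primitive endoderm genes gave 3 calls of 16, all of them matrix genes: Col4a1, Col4a2 and Sparc (0.48 ± 0.07). Without UNC 1 the list had 1 call, since Col4a1 and Sparc had adjusted p of 0.065 and 0.0506. The trophectoderm list (13 tested) and the Wnt target list (14 tested) had 1 call each, Eomes and Cdx1. None was called by edgeR among 13 neuroectoderm, 21 ATF4 stress, 22 cholesterol synthesis, 20 FGF and ERK response, 24 proliferation and 8 sex chromosome genes. Of these, 3, 5, 2, 3, 3 and 0 had an unadjusted p below 0.05 and DESeq2 called 1, 0, 1, 0, 0 and 0. With 1.31% of all genes tested called, 0 calls in a list of this size is near that share.

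The same question was then asked of the cells during reprogramming, which share no library with the iPSC. Of 14675 genes tested in both tables, 224 rose in the UNC iPSC. With 3C present, 1179 of the 14675 (8.03%) rose under UNC during reprogramming, and 145 of the 224 were among them, which is 64.7% of the iPSC genes and 12.3% of the reprogramming genes. With DOX alone 77 rose (0.525%), and 27 of the 224 were among them, 12.1% of the iPSC genes and 35.1% of the reprogramming genes. The overlap with 3C was 63 without UNC 1, 73 without UNC 2 and 94 without DMSO 1, and the overlap with DOX alone was 15 without UNC 1. For the 4 genes that fell in the iPSC and were tested in both, 0 were among the 597 lowered with 3C (4.07%) or the 16 lowered with DOX alone (0.109%). No gene was called in opposite directions. The difference between the UNC effects in iPSC and in reprogramming cells was not tested, since the tables were scaled separately.

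Thbs1 rose by 0.94 ± 0.08 with 3C and by 0.45 ± 0.08 with DOX alone during reprogramming, beside 0.67 ± 0.07 in the iPSC. Col5a1 rose by 0.83 ± 0.06 and 0.42 ± 0.06 in those comparisons, beside 0.65 ± 0.07 in the iPSC. The matrix gene Aebp1 rose by 0.86 ± 0.08 and 0.44 ± 0.08, beside 0.81 ± 0.09, and Ccdc80 by 0.55 ± 0.09 and 0.49 ± 0.09, beside 0.85 ± 0.08. Tgfb3 rose in all 3 comparisons too. Col1a1 rose with 3C (0.93 ± 0.08), whereas with DOX alone it did not pass the test (0.33 ± 0.08, adjusted p = 0.0878 in limma). Cyp1b1 behaved in the same way, with 0.61 ± 0.12 and 0.21 ± 0.12 (adjusted p = 0.622). Ly6a rose by 2.03 ± 0.09 with 3C and by 1.32 ± 0.09 with DOX alone, beside 0.88 ± 0.19 in the iPSC, where with all 6 libraries edgeR did not call it (adjusted p = 0.0502) and DESeq2 did (adjusted p = 0.0126). Prkg2 was called in the iPSC but not during reprogramming (-0.14 ± 0.18 with 3C, 0.21 ± 0.18 with DOX alone), and Kcnj15 was below the filter there.

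**Figure D5:**
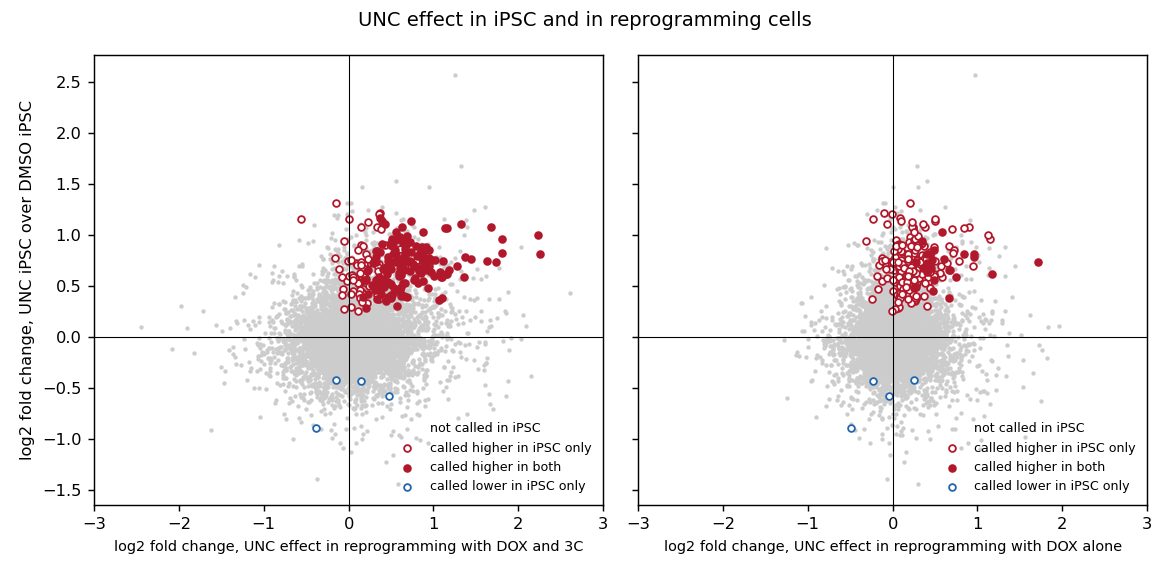
Log2 fold change of UNC iPSC over DMSO iPSC (vertical axes) against the log2 fold change under UNC in reprogramming cells with DOX and 3C (left) and with DOX alone (right), on the log2(value + 1) scale. Filled red points are the 145 (left) and 27 (right) genes called higher in both, open points were called in the iPSC and not in reprogramming, and grey points were not called in the iPSC.

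The genes that rose were spread over the genome. Every autosome held 4 to 20 of the called higher genes with at least 2 CPM, the X chromosome 10 and the Y chromosome 0 of 6. Chromosome medians of the libraries, on the log2 scale, lay within 0.06 of each other for each autosome and the X chromosome, and within 0.19 for the 6 genes of the Y chromosome. The longest run of neighbouring tested genes that all rose had 3 members, Dkk3, Mical2 and Parva on chromosome 7 (112116019 to 112591688). Dkk3, a secreted member of the Dickkopf family, had 43.05, 44.7 and 43.95 CPM in the UNC iPSC, against 27.7, 31.6 and 29.2 CPM in the DMSO iPSC (0.58 ± 0.07). Mical2, an actin-oxidising enzyme, rose by 0.74 ± 0.11 and Parva, an adhesion adaptor, by 0.56 ± 0.07. Runs of 2 included pairs of one family, Col3a1 with Col5a2, Col6a2 with Col6a1, Col4a1 with Col4a2, and Cdkn2a with Cdkn2b.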

How the data were processed

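RNA was extracted as total RNA, depleted of ribosomal RNA and sequenced from stranded libraries, per the labels' protocols. The iPSC table holds raw read counts per gene as the authors deposited them. The table of reprogramming cells holds a signal, counts divided by 1 factor per library, as deposited by the authors. TopHat2 2.1.0, SAMtools 1.8, HTSeq 0.5.4p3, DESeq and mm10 are named in the submitters' processing notes, with no role. Whether reads were counted by strand is not given in the sources used here.

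Libraries were grouped by their labels. Titles and descriptions number the DMSO replicates differently, and the title numbers were used. Symbols matched 54723 of 54838 identifiers. iPSC counts were tested in R 4.3.3 with edgeR 4.0.16 (filterByExpr, TMM factors, quasi-likelihood test, Benjamini-Hochberg adjustment over all genes tested, threshold 0.05), with UNC over DMSO as the fold change. SEs are the log2 fold change divided by the square root of F. CPM uses the total reads in genes of each library. The reprogramming table was tested with limma 3.58.1 on log2(value + 1), for the 16138 genes that reached 10 in 3 or more of its 12 libraries. Fold changes on that scale understate changes of low genes. Dividing the signal by each library's smallest step gave whole reads for 100% of values within 0.01, 10616764 to 20211641 per library. edgeR on those reads called 74 genes higher and 20 lower with DOX alone (limma 82 and 16), and 1390 higher and 691 lower with 3C (limma 1244 and 636). A further 2 columns of that table were not used. The steps were tested on simulated data. DESeq2 1.42.0 and limma voom served as alternatives.

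Genes were named by a rule: the 12 largest changes each way among called genes with at least 2 CPM, the 6 largest without DMSO 3, up to 3 members of each of 29 lists with the smallest p, a short list of pluripotency, imprinted and target genes, the 8 genes each way that set DMSO 3 apart, the longest run of called neighbours, and the 5 smallest p shared with reprogramming. A result that falls under the rule but is not given is not reported here. Further genes, and the symbol families, were chosen after their values were seen. The comparison, the lists and the rule were chosen with earlier results of these data known.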

Additional observations from a re-analysis of the deposited data

Results flagged for a closer look

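For 3 genes all UNC libraries lay on one side of their controls in the iPSC and on the other side during reprogramming. In the iPSC alone the groups did not overlap for 19.24% of all genes tested. The share of all genes with opposite sides in both was not counted. Krt8 was lower in the UNC iPSC (log2 fold change -1.04) and higher under UNC with DOX alone (0.89 on the log2(value + 1) scale). Myc was higher in the UNC iPSC (0.29) and lower under UNC with 3C (-0.42). Trim28 was higher in the UNC iPSC (0.18) and lower under UNC with 3C (-0.094). The differences between the effects were not tested, and none of the 3 genes was called in the iPSC by edgeR.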

How the results depend on the processing

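The count of 236 called genes was 392 with DESeq2, 572 with limma voom and quality weights, 823 without a low-count filter and 85 to 216 with 1 library left out. The 229 higher genes were 435 with voom, 479 without the filter and 85 to 210 with a library left out. The 7 lower genes were 65 with DESeq2, 137 with voom, 344 without the filter and 0 to 10 with a library left out. The 21 genes with at least a 2-fold change were 40 with voom, 75 without the filter and 5 to 43 with a library left out. The overlap of 145 with reprogramming under 3C was 229 with voom, 242 without the filter and 63 to 133 with a library left out, and the overlap of 27 with DOX alone was 15 to 24 with a library left out. The causes were not tested. RLE factors, no normalisation factor and a 1 CPM minimum kept each of these counts within 1.5 times. No named gene that edgeR called changed direction under these settings, whereas genes near 0 with no call, among them Ccn1, Twist1, Tgfb1, Sox2 and Pou5f1, changed sign when a library was left out. Deviations from the group mean correlated at 0.049, 0.057 and 0.109 for UNC and DMSO libraries that share a title number. Pairs with different title numbers gave -0.128 to 0.094, and those that share a description number -0.028, -0.128 and -0.110. All these correlations are small, and whether the title numbers pair the libraries was not settled. The main fit did not pair them, and its counts, that of lower genes most of all, depend on this choice. With a replicate block by title numbers 407 genes were called, 96 of them lower and 37 at least 2-fold, and with a block by description numbers 176, 4 of them lower. Genes under 1 CPM rest on few reads per library, so their differences are poorly resolved at this depth.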
